A study of Mus musculus with 2 samples.

Results

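The genes of oxidative phosphorylation were 110 of the 32285 genes listed in the count tables. They were picked by symbol: nuclear genes whose names begin with Ndufa, Ndufb, Ndufc, Ndufs, Ndufv, Sdha, Sdhb, Sdhc, Sdhd, Uqcr, Cox4 to Cox8 or Atp5, and mitochondrially encoded genes whose names begin with mt-Nd, mt-Co, mt-Cytb or mt-Atp. Ndufb1-ps was left out by its symbol alone, since the rule skips symbols that contain -ps. Cyc1, a subunit of complex III with another kind of name, lies outside the rule. Of the 110 genes, 97 are nuclear and 13 are encoded by the mitochondrial genome. The nuclear set holds 36 subunit genes of complex I, 4 of complex II, 8 of complex III, 20 of complex IV, 17 of complex V and 12 assembly factors of complexes I and II. The mitochondrial set holds 7 genes of complex I, mt-Cytb of complex III, 3 genes of complex IV and 2 of complex V. A level of at least 10 CPM in either library (a gene's UMIs scaled to the total, so that 10000 CPM is 1% of all UMIs) was reached by 92 nuclear genes and by all 13 mitochondrial ones.

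Oxidative phosphorylation passes electrons from NADH and succinate through complexes I to IV to oxygen, and complex V uses the proton gradient so made to form ATP. Complexes I, III, IV and V are mosaics: a few core membrane subunits are read from mitochondrial DNA, and the remaining subunits, with all of complex II, are read from the nucleus and imported. Naive embryonic stem cells use respiration and glycolysis side by side, while primed epiblast cells are known for a mainly glycolytic metabolism.

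Both libraries held a mixture of the same 9 mouse embryonic stem cell lines of the inbred strain C3H/HeSn-Paf/J, 3 lines each from XX, XO and XY embryos. The lines were kept in serum with leukaemia inhibitory factor on gelatin and irradiated mouse embryonic fibroblasts. The share of each line in each library is not known, so ratios between the libraries cannot be told apart from a change in these shares. The library of time 1 was made at an early passage and that of time 2 after 10 further passages, a span in which the study meant aneuploid cells to accumulate. Each time point is thus 1 library of pooled lines, cells were not assigned to lines, since the files used here hold no map from cells to lines, and no difference between the libraries has a replicate check or a test. Intervals given below are exact 95% Poisson intervals of summed unique molecular identifiers (UMIs) and cover counting error only.

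The libraries summed to 1735810403 and 1843588321 UMIs, and 23210 and 25483 cells were kept. They shared 2155 of their barcodes, and 157 of the barcodes kept. Barcodes under 2000 UMIs had 1.25% mitochondrial UMIs at time 1 and 16.4% at time 2, and the part of this RNA in the mitochondrial values below was not tested. Cells were grouped into states by clustering on variable autosomal genes other than the 110 of the set. Autosomal genes of glycolysis, of the other lists below and of the cell type markers were not kept out of that clustering. The pluripotent stem cell-like class was made up of 4 clusters, led by Dppa3, Jam2, Nanos3 and Gm46332, with 5319 cells (22.9%) at time 1 and 19488 (76.5%) at time 2. At time 1 most of the class lay in the Dppa3-led cluster (3498 cells) and the Jam2-led cluster (1663 cells). At time 2 most lay in the Nanos3-led cluster (8863 cells) and the Gm46332-led cluster (7914 cells), so the class differed in makeup between the libraries. All 13 pluripotency markers were detected in the class at both times, as in every cluster, with a summed level of 10775 CPM at time 1 and 7486 CPM at time 2. At time 1 clusters outside the class held similar sums, with 11047 CPM in the H19-led (4539 cells), 8779 CPM in the Rpgrip1-led (2269 cells) and 8127 CPM in the Ulk4-led cluster (3627 cells), while the Gm46332-led cluster of the class had 6243 CPM at time 2, so the share of cells in the class depends on leaving those clusters out. In the class the 8 fibroblast markers summed to 9.97 and 11.4 CPM. In summed counts, fewer cells with a transcript and less of it per cell cannot be told apart.

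Within this class the nuclear genes of oxidative phosphorylation stood at nearly the same level in both libraries, while the mitochondrial genes of complex IV were lower and those of complexes I and III higher at time 2. The directions for complexes I, III and V did not hold within every cluster, as given with their values below. The nuclear genes summed to 29865 CPM at time 1 (95% interval 29845 to 29884) and 29576 CPM at time 2 (29566 to 29586), a log2 ratio of -0.01 on CPM plus 1. The mitochondrial genes summed to 23645 CPM (23628 to 23663) and 22719 CPM (22710 to 22728), a log2 ratio of -0.06. Cell by cell, the ratio of mitochondrial to nuclear UMIs of these genes had a median of 0.76 (quartiles 0.51 and 1.06) at time 1 and 0.75 (0.57 and 0.96) at time 2.

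No nuclear complex differed much as a sum. Complex I stood at 7405 CPM at time 1 and 7352 CPM at time 2, and complex V at 8971 and 8978 CPM. Complex III stood at 2712 and 2728 CPM and complex IV at 10016 and 9772 CPM, while complex II, the only one with no mitochondrial subunit, had 340 and 323 CPM. The largest log2 ratio among these 5 sums was -0.07, for complex II, and the assembly factors had 420 and 422 CPM, a log2 ratio of 0.00.

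At a fold of 1.2, 8 of 92 nuclear genes were higher at time 2, where 18.7% of all 7245 genes of at least 10 CPM were. In the other direction 15 of 92 were lower, beside 23.9% of all genes. The median log2 ratio was -0.02 for the nuclear genes and -0.03 for all genes. The split turned with the scaling, so that small ratios carry no direction of their own. TMM factors from edgeR moved the median of all genes by 0.14, to 0.12. Then 23 nuclear genes were past 1.2-fold higher and 8 lower. The shares of all genes past this fold under TMM factors are not given, so these counts cannot be set against the 18.7% and 23.9%. Complexes I, IV and V and the assembly factors held 5, 1, 1 and 1 of the higher genes, and complexes I, II, IV and V and the assembly factors 5, 1, 4, 1 and 4 of the lower ones. Complex III held none in either direction: its members lay between Uqcrfs1, the Rieske iron-sulphur protein, at -0.20 and Uqcrc1, a core protein, at 0.17.

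**Figure D1:**
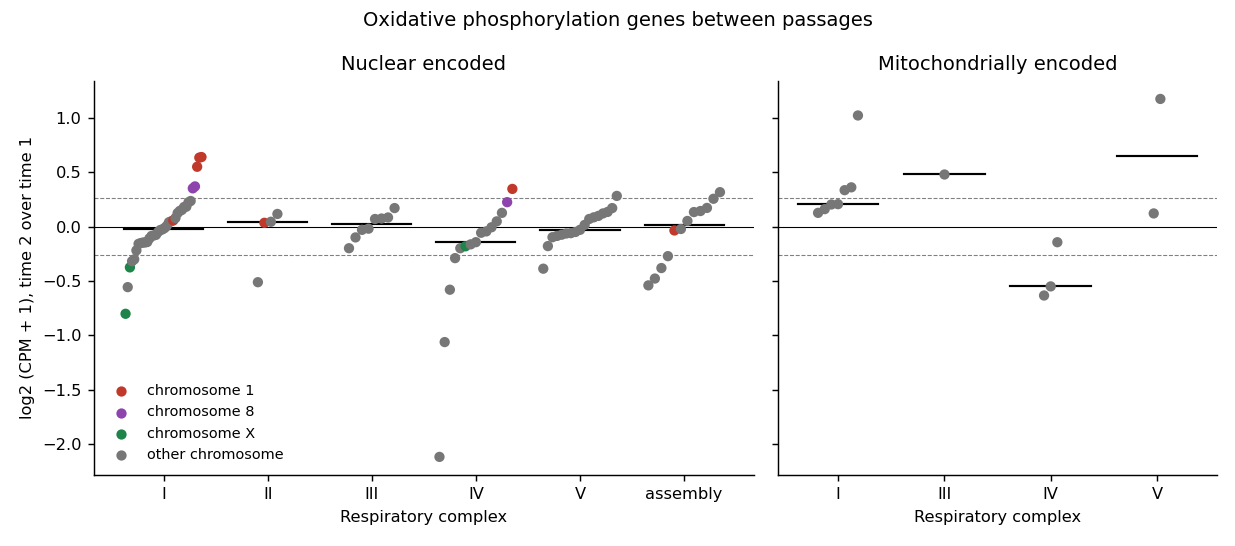
Each point is a gene with at least 10 CPM in either library, placed by its log2 ratio of CPM plus 1 at time 2 over time 1 in pluripotent stem cell-like cells, with nuclear genes on the left and mitochondrially encoded genes on the right, by respiratory complex. Black bars mark medians, dashed lines a fold of 1.2, and colours the chromosomes 1, 8 and X; several of the highest nuclear genes are on chromosome 1, and the mitochondrial genes of complex IV lie below all those of the other complexes.

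Genes of complex I on chromosome 1 were among the nuclear genes with the highest ratios. Ndufs1, the largest iron-sulphur subunit (chr1:63143596-63176833, GRCm38), had 42.4 CPM at time 1 (41.7 to 43.2) and 66.6 CPM at time 2 (66.2 to 67.1), a log2 ratio of 0.64. Ndufa10, an accessory subunit (chr1:92439010-92473860), had 145 and 212 CPM, a log2 ratio of 0.55. Both were also higher at time 2 within each of the 5 clusters with at least 400 cells in both libraries, by less: Ndufs1 by log2 ratios of 0.15 to 0.49 and Ndufa10 by 0.14 to 0.45.

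On chromosome 1, 4 of 7 genes of the set were past 1.2-fold higher, beside 55.6% of all its genes. They include Cox5b, a zinc-binding subunit of cytochrome c oxidase, with 465 and 592 CPM. Ndufb3, Sdhc and the assembly factor Sdhaf4, on the same chromosome, had log2 ratios of 0.06, 0.03 and -0.04. On chromosome 8, Ndufa13 (259 and 335 CPM) and Ndufb7 (200 and 255 CPM), both accessory subunits of complex I, were past this fold and Cox4i1 (1684 and 1968 CPM, log2 ratio 0.22) was not, thus 2 of 3 genes beside 48.6% of all genes there. The members' shares were near those of their chromosomes.

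Of 3 genes on the X chromosome, 2 were past 1.2-fold lower, where 62.0% of X-linked genes were. Ndufa1, a small accessory subunit needed to assemble complex I (chrX:37187588-37191163), had 163 CPM at time 1 (162 to 165) and 93.3 CPM at time 2 (92.7 to 93.8), a log2 ratio of -0.80. Ndufb11, an accessory subunit of the membrane arm, had 230 and 177 CPM, a log2 ratio of -0.38. Cox7b, a subunit of complex IV, had 762 and 672 CPM, a log2 ratio of -0.18. Within the Jam2-led cluster, however, Cox7b had 1058 CPM at time 1 and 1182 CPM at time 2. It was also higher at time 2 in X-high cells and in X-low cells, as defined and given below.

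Outside chromosomes 1, 8, 14 and X, 79 nuclear genes remained to be compared, of which 2 were past 1.2-fold higher and 13 lower, beside 13.9% and 24.8% of all nuclear genes there. The higher ones were Atp5g1, a gene for the c subunit of the ATP synthase rotor, and Ndufaf2, an assembly factor of complex I with 65.4 and 81.8 CPM. The lower ones included 4 assembly factors. Ndufaf3, which takes part in the assembly of complex I, had 46.3 and 31.5 CPM, and Sdhaf1, which helps insert iron-sulphur clusters into complex II, had 21.3 and 15.0 CPM. Sdhd, a membrane anchor of complex II on chromosome 9, had 91.7 CPM (90.6 to 92.8) and 64.0 CPM (63.5 to 64.5). Its log2 ratio was -0.51 in the class and between -0.52 and -0.70 within the 5 clusters, while the other 3 subunits of complex II had ratios from 0.03 to 0.12. Ndufv3, an accessory subunit of the NADH-oxidising module of complex I, had 271 and 184 CPM, a log2 ratio of -0.56, and was lower within each of the 5 clusters, from -0.19 to -0.56.

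The mitochondrial genes differed among themselves by more than their sum did. At a fold of 1.2, 5 of 13 were higher and 2 lower at time 2, beside the same 18.7% and 23.9% of all genes, and these 13 are cut from a few long precursor transcripts, so they are not independent. All 3 genes of complex IV were lower. mt-Co1, the catalytic subunit (chrM:5328-6872), had 4243 CPM at time 1 (4236 to 4250) and 2733 CPM at time 2 (2730 to 2736), a log2 ratio of -0.63. mt-Co3 had 4148 and 2832 CPM, a log2 ratio of -0.55, and mt-Co2, which takes electrons from cytochrome c, had 3763 and 3406 CPM, a log2 ratio of -0.14. Under TMM factors these ratios were -0.49, -0.41 and -0.0046, so the lower level of mt-Co2 was lost with that scaling.

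The other 10 mitochondrial genes had ratios above 0. mt-Cytb, the only mitochondrial subunit of complex III (chrM:14145-15288), had 2643 CPM (2637 to 2648) and 3688 CPM (3685 to 3692), a log2 ratio of 0.48. The 7 complex I genes summed to 5422 CPM at time 1 and 6305 CPM at time 2, with log2 ratios from 0.13 for mt-Nd4 to 1.02 for mt-Nd4l. mt-Atp6, the proton-channel subunit of complex V, had 3406 and 3704 CPM, a log2 ratio of 0.12. The complexes thus went in different directions in their mitochondrial part: complex IV as a sum stood at 12153 and 8971 CPM, a log2 ratio of -0.44, while complex I had a ratio of 0.22 and complex V of 0.13. The nuclear part of complex IV had a ratio of -0.04.

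The class changed its clusters between the libraries, and of the mitochondrial sums by complex only that of complex IV was on the same side of 0 in every cluster compared. Its mitochondrial sum had log2 ratios of -0.33 in the Dppa3-led, -0.66 in the Jam2-led, -0.68 in the H19-led, -0.69 in the Sema6a-led and -0.28 in the Mgp-led cluster, the 5 clusters with at least 400 cells in both libraries. The complex I sum was slightly above 0 in the Dppa3-led (0.07) and Mgp-led (0.15) clusters and below 0 in the Jam2-led (-0.17), H19-led (-0.18) and Sema6a-led (-0.37) clusters. Of its 7 genes, 5 were below 0 in the Jam2-led and H19-led cells and 6 in the Sema6a-led cells. The complex V sum was below 0 in 4 of the 5 clusters, at -0.05 in the Dppa3-led, -0.30 in the Jam2-led, -0.39 in the H19-led and -0.47 in the Sema6a-led cells, and at 0.10 in the Mgp-led ones. mt-Cytb had ratios of 0.16, 0.02, -0.04, -0.11 and 0.53 in the Dppa3-led, Jam2-led, H19-led, Sema6a-led and Mgp-led clusters. Among single genes, mt-Atp8 (0.53 to 1.06) and mt-Nd4l (0.41 to 1.14) were higher in all 5.

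The highest ratios of the set belonged to mt-Atp8 and mt-Nd4l, the short leading frames of the pair of mitochondrial messages that each carry overlapping genes. mt-Atp8 had 21.98 CPM at time 1 (21.5 to 22.5) and 50.9 CPM at time 2 (50.5 to 51.3), a log2 ratio of 1.17. mt-Nd4l had 90.7 CPM (89.6 to 91.7) and 185 CPM (184 to 186), a log2 ratio of 1.02. Their partners on the same messages, mt-Atp6 and mt-Nd4, had ratios of 0.12 and 0.13. The sequences below, from GENCODE M21 (GRCm38), show the overlaps: mt-Atp8 (chrM:7766-7969, 204 bases) shares its last 43 bases with mt-Atp6 (chrM:7927-8607), and mt-Nd4l (chrM:9877-10173, 297 bases) its last 7 with mt-Nd4 (chrM:10167-11544). Capitals mark the shared bases, plus strand. A read that lies in them alone cannot be given to 1 gene by position, and how reads were divided between these genes was not tested.
mt-Atp8: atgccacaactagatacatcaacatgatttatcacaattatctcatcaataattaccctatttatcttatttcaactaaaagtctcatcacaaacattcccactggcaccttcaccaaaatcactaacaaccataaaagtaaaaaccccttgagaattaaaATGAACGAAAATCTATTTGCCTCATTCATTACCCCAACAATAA
mt-Nd4l: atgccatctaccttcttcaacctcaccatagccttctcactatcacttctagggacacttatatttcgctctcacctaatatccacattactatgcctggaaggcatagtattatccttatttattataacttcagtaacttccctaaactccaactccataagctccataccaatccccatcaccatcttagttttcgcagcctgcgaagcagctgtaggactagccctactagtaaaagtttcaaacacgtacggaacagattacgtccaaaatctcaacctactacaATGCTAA

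As a share of all mitochondrial UMIs of the set, which no scaling of the library touches, mt-Co1 made up 17.9% at time 1 and 12.03% at time 2, and mt-Co3 17.5% and 12.5%. mt-Cytb made up 11.2% and 16.2%, mt-Nd4l 0.383% and 0.815%, and mt-Atp8 0.0931% and 0.224%. These 5 shares went the same way within each of the 5 clusters with at least 400 cells in both libraries. The log2 ratio of the share lay between -0.25 and -0.42 for mt-Co1, -0.22 and -0.36 for mt-Co3, 0.29 and 0.51 for mt-Cytb, 0.92 and 1.23 for mt-Nd4l, and 0.97 and 1.32 for mt-Atp8. Shares of 1 total are tied, so lower shares of some genes raise those of others. The CPM of mt-Cytb was lower at time 2 in the H19-led and Sema6a-led clusters, where its share was higher. The Mgp-led cluster among them was fibroblast-like, of another kind than the stem cells. Its fibroblast markers, 8 of 8 detected, summed to 3568 CPM at time 1 and 3529 CPM at time 2, but it also held 306 and 341 CPM of Pou5f1, a stem cell gene at 736 and 792 CPM in the pluripotent class, so its values are not free of stem cell RNA.

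**Figure D2:**
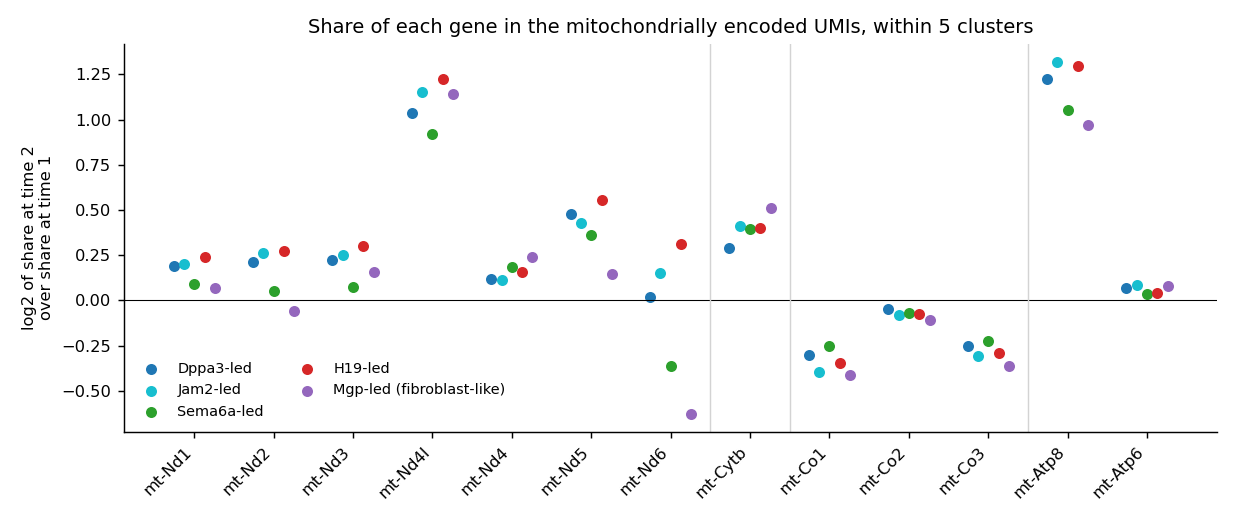
Each point is the log2 ratio, time 2 over time 1, of a gene's share of the summed UMIs of the 13 mitochondrial genes, within 1 of 5 clusters; vertical lines part complexes I, III, IV and V. mt-Co1, mt-Co2 and mt-Co3 lie below 0 in each of the 5 clusters. mt-Cytb, mt-Nd4l, mt-Atp8, mt-Nd1, mt-Nd3, mt-Nd4, mt-Nd5 and mt-Atp6 lie above 0 in each. mt-Nd2 and mt-Nd6, the latter the only gene on the other strand, lie on both sides.

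Within the same 5 clusters the nuclear sum hardly differed between libraries, with log2 ratios from -0.05 in the Dppa3-led cluster to 0.04 in the Jam2-led one. The mitochondrial sum did differ in some. It was 24325 CPM at time 1 and 22199 CPM at time 2 in the Dppa3-led cluster (log2 ratio -0.13) and 22317 and 16970 CPM in the Jam2-led cluster (-0.40). In the H19-led cluster it was 25481 and 18824 CPM (-0.44), in the primed epiblast-like cluster, led by Sema6a, 25777 and 18097 CPM (-0.51), and in fibroblast-like cells 19989 and 20196 CPM (0.01). The 4 clusters other than the fibroblast-like one thus had ratios below the -0.06 of the class, most of whose cells lay in other clusters at time 2. Nuclear genes past 1.2-fold in either direction numbered 10 of 92 in the Dppa3-led cluster, where 25.4% of all genes were. They numbered 13 of 92 in the Jam2-led cluster (31.0% of all genes), 12 of 91 in the Sema6a-led cluster (33.6%), 14 of 91 in the H19-led cluster (28.7%) and 18 of 92 in the Mgp-led, fibroblast-like one (39.1%).

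Several subunits of complexes IV and V are read from alternative genes, and complex IV isoforms had the lowest pair of ratios in the set. Ndufa4l2, the hypoxia-inducible relative of the complex IV subunit Ndufa4 (chr10:127514967-127517154), had 66.6 CPM at time 1 (65.7 to 67.6) and 14.6 CPM at time 2 (14.3 to 14.8), a log2 ratio of -2.12 and the lowest of the set. Ndufa4 itself had 669 and 649 CPM. Within clusters the ratio of Ndufa4l2 was -0.36 in the Dppa3-led and -0.42 in the Sema6a-led cells but -1.49 in the Jam2-led, -1.57 in the H19-led and -1.60 in the fibroblast-like ones. At time 2 the gene had 49.4 CPM in the Dppa3-led cluster and 10.8 CPM in the Nanos3-led cluster.

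Cox6b2, known as the testis isoform of subunit 6B (chr7:4751792-4753094), had 93.7 CPM (92.6 to 94.8) and 44.4 CPM (44.0 to 44.7), a log2 ratio of -1.06, while Cox6b1, the common isoform, had 418 and 456 CPM. Cox7a1, the heart and muscle isoform of subunit 7A, had 35.2 and 23.2 CPM, a log2 ratio of -0.58, beside 677 and 700 CPM for Cox7a2. Cox8a, the common isoform of subunit 8, had 961 and 786 CPM. The remaining tissue isoforms were scarce: Cox4i2 had 3.83 and 2.44 CPM, Cox7b2 4.10 and 1.67 CPM, Cox6a2 0.548 and 0.346 CPM and Cox8c 0.887 and 0.916 CPM, while Cox8b had 2 UMIs in all at time 1 and 6 at time 2.

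Atp5g1, Atp5g2 and Atp5g3 encode the same mature c subunit, the proton-carrying ring of complex V, with different import signals. Atp5g1 (chr11:96068852-96075670) had 742 CPM at time 1 (739 to 745) and 903 CPM at time 2 (901 to 905), a log2 ratio of 0.28. Atp5g2 (chr15:102662864-102672352) had 1023 CPM (1019 to 1027) and 782 CPM (780 to 783), a log2 ratio of -0.39. Atp5g3 had 317 and 301 CPM, a log2 ratio of -0.07. The lower level of Atp5g2 was found within all 5 clusters, with log2 ratios from -0.20 to -0.38. That of Atp5g1 varied with the cluster: -0.01 in Sema6a-led and 0.01 in Dppa3-led cells, 0.13 in H19-led, 0.32 in Jam2-led and 0.45 in fibroblast-like cells.

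The promoters of Atp5g1 and Atp5g2, chosen after their values were seen, are shown to spell out a motif that many respiratory genes carry, present in 1 and not in the other. NRF1, a regulator of nuclear genes for respiration, is known to bind a GC-rich palindrome, and its core was searched as GCGCANGCG on both strands in the 300 bases from 250 before to 50 after each RefSeq start (GRCm38.p6). The motif was in 6.25% of all 32851 promoters and in 24 of the 79 nuclear genes of the set that the table holds (30.4%). A gene of the set counted if any of its promoters held the motif, while the share of all was taken per promoter, so these shares are in unlike units. Atp5g2 (chr15:102670998-102671297, minus strand, a start inside the longer GENCODE gene) held 2 overlapping matches, 1 on each strand, in capitals. Atp5g1 (chr11:96075582-96075881, minus strand) held none, which says only that these letters are absent from this window. Atp5g3, with a ratio of -0.07, also held the motif, and neither Cox6b1 nor Cox6b2, with ratios of 0.13 and -1.06, did.
Atp5g1: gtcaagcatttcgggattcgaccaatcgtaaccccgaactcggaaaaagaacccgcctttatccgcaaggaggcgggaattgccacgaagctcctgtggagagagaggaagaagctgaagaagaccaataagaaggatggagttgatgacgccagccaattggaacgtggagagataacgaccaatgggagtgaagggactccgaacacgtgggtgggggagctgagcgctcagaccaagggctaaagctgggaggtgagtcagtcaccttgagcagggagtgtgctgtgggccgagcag
Atp5g2: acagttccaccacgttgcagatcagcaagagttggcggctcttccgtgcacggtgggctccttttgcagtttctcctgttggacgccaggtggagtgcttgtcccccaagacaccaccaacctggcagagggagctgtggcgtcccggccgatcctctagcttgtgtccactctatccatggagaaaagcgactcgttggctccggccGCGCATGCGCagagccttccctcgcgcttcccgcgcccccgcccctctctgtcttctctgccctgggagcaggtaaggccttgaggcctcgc

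Over the set, the motif did not part the genes by their ratio between libraries. Of 77 genes with a promoter entry and at least 10 CPM, 24 with the motif had a median log2 ratio of -0.03 (from -0.51 for Sdhd to 0.26 for Ndufaf4), and 53 without it also had a median of -0.03 (from -1.06 for Cox6b2 to 0.55 for Ndufa10). Nrf1 itself had 39.2 and 38.9 CPM, and Tfam, the packaging and transcription factor of mitochondrial DNA, 81.4 and 90.5 CPM.

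**Figure D3:**
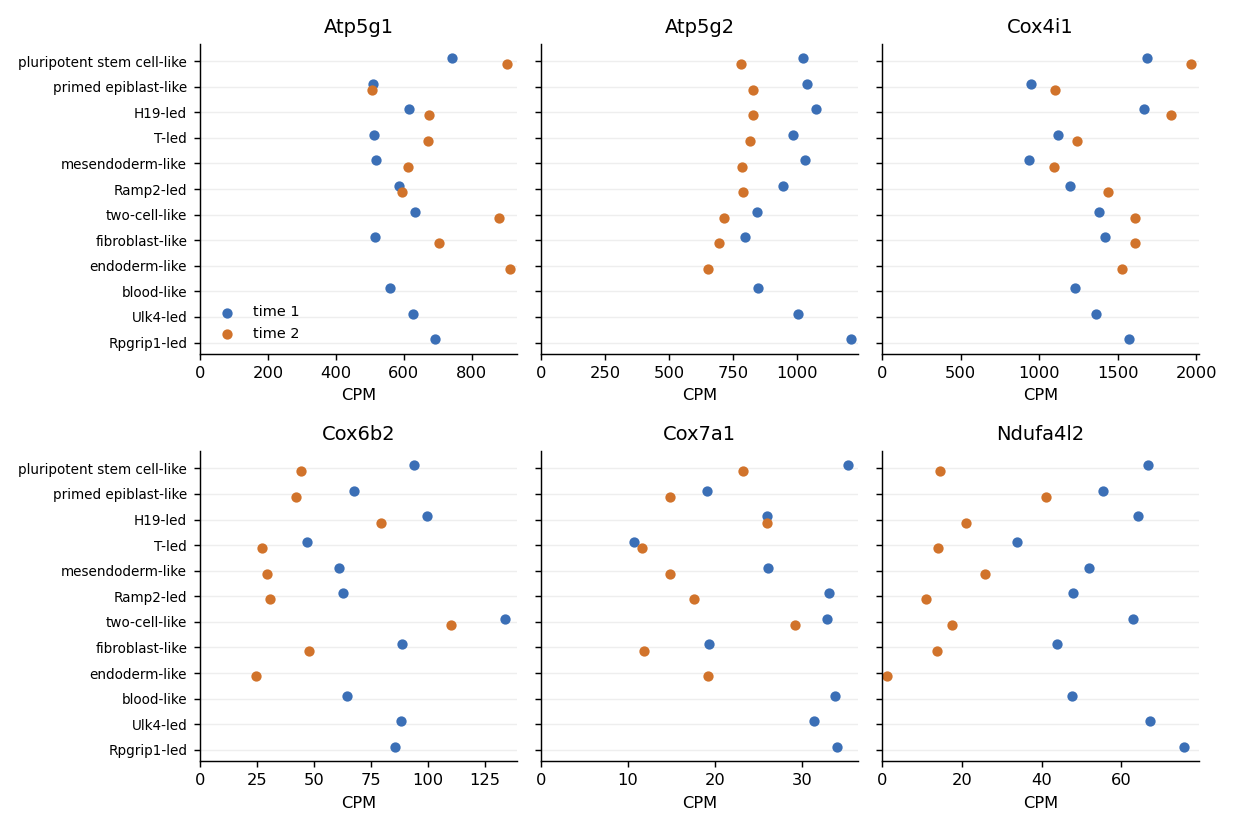
Levels in CPM of 6 genes in each cell state, with time 1 in blue and time 2 in orange; each point is 1 state of 1 library, summed over its cells, and states with fewer than 50 cells in a library have no point. Atp5g2, Cox6b2 and Ndufa4l2 were lower at time 2 in every state present in both libraries, and Cox4i1 was lower in primed epiblast-like and mesendoderm-like cells than in pluripotent cells of the same library.

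Across cell states the nuclear sum varied little and the mitochondrial sum more. Each state was set against the pluripotent stem cell-like cells of its own library. Leaving aside the Card19-led cluster, the nuclear sum ranged from 26727 CPM in Ramp2-led cells to 33461 CPM in Rpgrip1-led cells at time 1, where the class had 29865 CPM. At time 2 it ranged from 25995 CPM in primed epiblast-like to 30576 CPM in endoderm-like cells, where the class had 29576 CPM. The mitochondrial sum ranged from 18458 CPM in Rpgrip1-led to 30229 CPM in Ramp2-led cells at time 1, and from 17419 CPM in mesendoderm-like to 26276 CPM in endoderm-like cells at time 2. Among the stem cell clusters themselves, the Jam2-led cluster at time 2 stood lowest in the mitochondrial sum, at 16970 CPM, and had the highest nuclear sum of these clusters, at 31549 CPM.

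**Figure D4:**
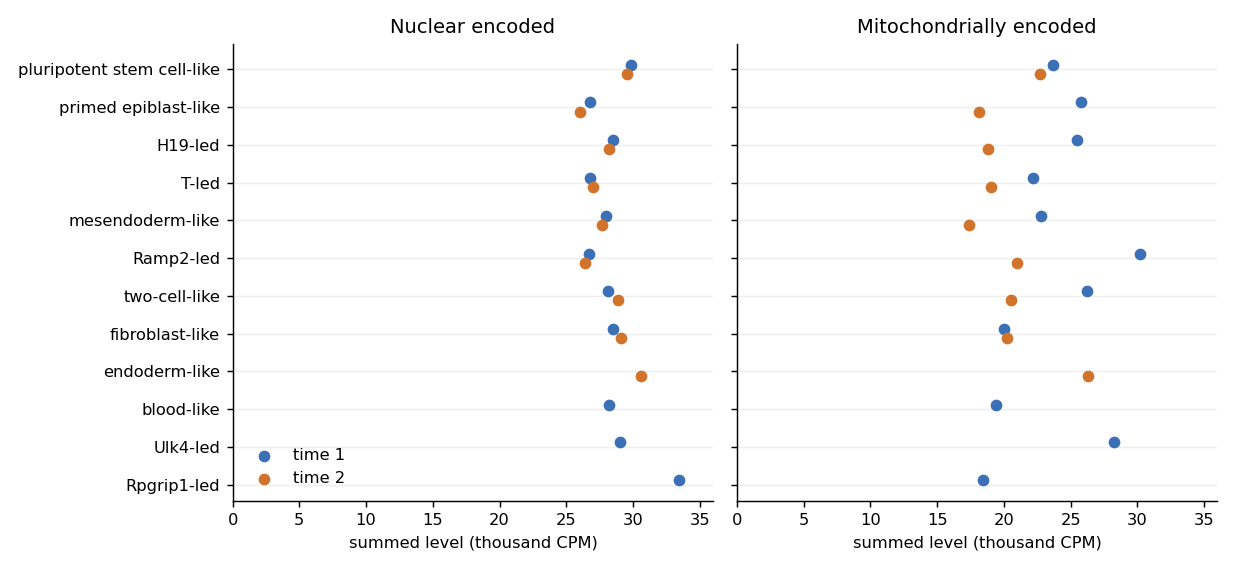
Summed levels, in units of 1000 CPM, of the 97 nuclear genes (left) and the 13 mitochondrial genes (right) in each cell state, with time 1 in blue and time 2 in orange; the Card19-led cluster is not drawn. The nuclear sums lie close together, and the mitochondrial sums of the same state lie farther apart between libraries, except in fibroblast-like cells.

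Primed epiblast-like cells, with 6228 cells at time 1 and 434 at time 2, had less nuclear complex IV than pluripotent cells, with a log2 ratio of -0.29 in both libraries. For complex I the ratios were -0.07 and -0.09, and for complex V -0.12 and -0.18. Cox4i1, a regulatory subunit of complex IV, had 947 CPM in primed and 1684 CPM in pluripotent cells at time 1, and 1102 and 1968 CPM at time 2, with log2 ratios of -0.83 and -0.84. Cox5a had 634 CPM in primed and 1001 CPM in pluripotent cells at time 1, a log2 ratio of -0.66, and Cox7a1 had 19.1 and 35.2 CPM. Ndufaf6, an assembly factor of complex I, was higher in primed cells in both libraries (62.8 beside 37.8 CPM, and 53.9 beside 31.2 CPM). At time 2 only, Ndufa4l2, counted with complex IV, was higher in primed cells, with 41.2 beside 14.6 CPM (log2 ratio 1.44). At time 1 it was lower in primed cells than in the pluripotent class, which then had 66.6 CPM. Atp5g1 was lower in primed cells at time 2, with 507 beside 903 CPM (-0.83).

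The same subunits recurred in other states. The nuclear complex IV sum had log2 ratios of -0.26 and -0.23 in T-led cells, -0.28 and -0.26 in mesendoderm-like cells and -0.26 and -0.25 in Ramp2-led cells, at time 1 and time 2. Cox4i1 in mesendoderm-like cells stood at 937 CPM at time 1 and 1095 CPM at time 2, log2 ratios of -0.84 and -0.85. In T-led cells Cox7a1 had 10.7 CPM at time 1 and 11.6 CPM at time 2, log2 ratios of -1.63 and -0.94, and Cox6b2 had 46.9 and 27.4 CPM.

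In 2-cell-like cells, which express genes of the cleavage-stage embryo, the assembly factor Sdhaf3 stood apart. It had 48.5 CPM in 2-cell-like and 15.8 CPM in pluripotent cells at time 1 (log2 ratio 1.56), and 33.3 and 11.9 CPM at time 2 (1.41). Cox6b2 was also higher there, with 134 beside 93.7 CPM at time 1 and 110 beside 44.4 CPM at time 2. All 8 markers of this state were detected, with a sum of 1285 CPM at time 1 beside 0.920 CPM in pluripotent cells.

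Relative to pluripotent cells, fewer nuclear genes of the set than of all genes were past 1.5-fold, both directions counted together, in every state, though the background was not restricted to genes of like level. At time 1, 0 of 92 nuclear and 1 of 13 mitochondrial genes were past this fold in Ulk4-led cells (5.35% of all genes), and 1 and 0 in H19-led cells (6.69%). In 2-cell-like cells 1 nuclear and 0 mitochondrial genes were (14%), and in primed epiblast-like cells 5 and 1 (22.2%). T-led cells had 6 and 0 (25%), Rpgrip1-led cells 0 and 3 (27.0%), and Ramp2-led cells 0 and 1 (28.4%). Blood-like cells had 2 and 3 (33.7%), mesendoderm-like cells 5 and 2 (33.9%), fibroblast-like cells 7 and 1 (54.0%) and Card19-led cells 39 and 13 (57.5%). In Card19-led cells the directions parted, with 35 of the 92 nuclear genes higher, beside 9.56% of all genes, and 4 lower, beside 47.9%.

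At time 2 the 2-cell-like cells had 2 nuclear and 0 mitochondrial genes past 1.5-fold (13.5% of all genes), and H19-led cells 4 and 0 (17.5%). T-led cells had 4 and 1 (20%), primed epiblast-like cells 5 and 2 (31.3%), and Ramp2-led cells 3 and 0 (34.7%). Mesendoderm-like cells had 4 and 3 (36.7%), endoderm-like cells 10 and 1 (42.6%) and fibroblast-like cells 4 and 4 (54.3%). In endoderm-like cells the genes farthest from pluripotent cells were Ndufa4l2 (1.18 beside 14.6 CPM), Ndufa7, an accessory subunit of complex I (326 beside 599 CPM), and on the high side Sdhd (108 beside 64.0 CPM).

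Chromosome gains were called from RNA, since DNA copy number was not used here. A cell was counted as gained where the chromosome's UMIs, without the genes of the set, were at least 1.3 times the time 1 median relative to other autosomes; cells between that limit and a lower one for cells with no gain were set aside. At time 2, 1126 pluripotent cells had a gain of chromosome 1 alone and 1708 no gain of chromosomes 1, 8 or 14. All 7 genes of the set on chromosome 1 were past 1.2-fold higher in the gained cells, beside 82.4% of all genes of that chromosome, which themselves entered the call. Their log2 ratios ran from 0.32 for Ndufb3 to 0.57 for Ndufa10, with a median of 0.46 beside 0.49 for all genes of the chromosome. Cox5b, for instance, had 646 CPM in gained and 466 CPM in other cells, and Sdhc, a membrane anchor of complex II, 81.4 and 57.1 CPM.

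Gains of chromosome 8 alone were found in 767 pluripotent cells at time 1 and 2350 at time 2. Its 3 genes were past 1.2-fold higher at both times, beside 88.6% of the genes of that chromosome at time 1 and 84.7% at time 2. At time 1 Cox4i1 had 2295 CPM in gained and 1576 CPM in other cells, a log2 ratio of 0.54, Ndufa13 a ratio of 0.49 and Ndufb7 of 0.45. At time 2 the ratios were 0.70, 0.34 and 0.37, between classes of unlike makeup. The Jam2-led cluster held 21 of the 2350 gained cells and 1061 of the 1708 cells with no gain. Within the Nanos3-led and Gm46332-led clusters at time 2, the highest ratio among the 3 genes was 0.48 and 0.43. Over the class, the medians of the 3 genes were 0.49 at time 1 and 0.37 at time 2, beside 0.50 and 0.54 for all genes of the chromosome. No gene of the set on chromosome 14 reached 10 CPM.

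No nuclear gene of the set on another chromosome was past 1.2-fold higher with these gains. With a gain of chromosome 1 at time 2, 0 of 85 were higher and 15 lower, beside 11.3% and 17.6% of all genes off that chromosome. With a gain of chromosome 8 at time 1, 0 of 89 were higher and 7 lower, beside 4.79% and 14.9% of all genes off it, and at time 2, 0 and 19, beside 15% and 19.3%. The mitochondrial sum was 24331 CPM in cells with a gain of chromosome 1 and 16800 CPM in those with none at time 2, a log2 ratio of 0.53. With a gain of chromosome 8 it was 21281 CPM at time 2 beside the same 16800 CPM, a ratio of 0.34, and 25502 beside 23231 CPM at time 1, a ratio of 0.13. The classes differed in makeup: 1061 of the 1708 cells with no gain lay in the Jam2-led cluster, and 664 of the 1126 gained cells in the Nanos3-led cluster.

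Within the Nanos3-led cluster, with 664 gained cells and 368 others, the 7 chromosome 1 genes had a median log2 ratio of 0.53 and the mitochondrial sum of 0.29. Within the Gm46332-led cluster, with 322 and 111 cells, these were 0.49 and 0.13. The ratio of the chromosome 1 genes was as large within clusters as over the class, and that of the mitochondrial sum was smaller. For chromosome 8 the 3 genes had a median of 0.42 within both clusters at time 2 and 0.41 within the Dppa3-led cluster at time 1, where the mitochondrial ratios were 0.05, -0.13 and 0.08.

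**Figure D5:**
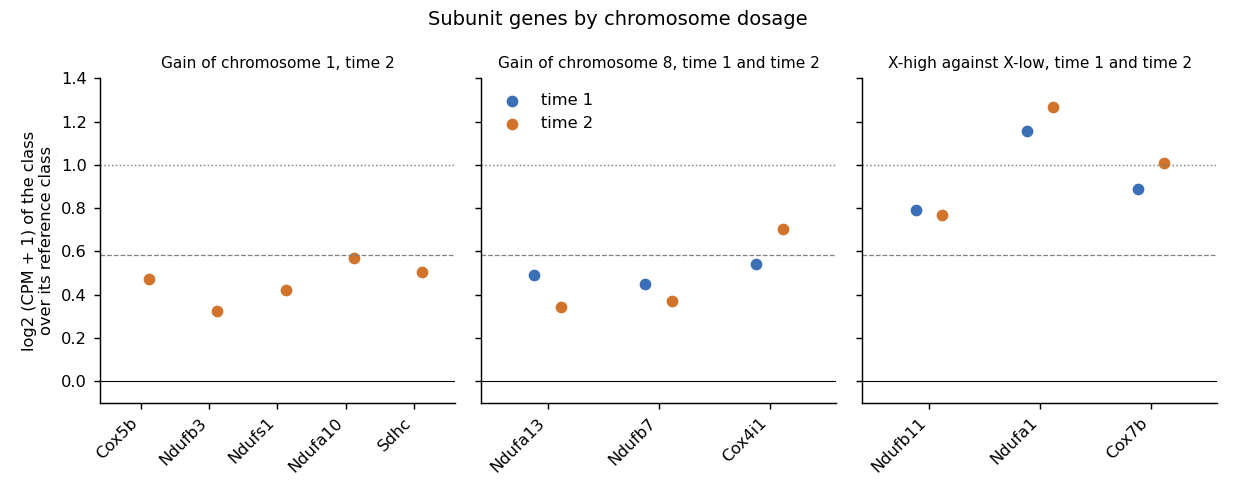
Log2 ratios of CPM plus 1 for genes of the set on chromosomes 1 (Ndufs1, Ndufa10, Cox5b, Ndufb3 and Sdhc), 8 and X. Pluripotent stem cell-like cells with a gain are set over cells with none (left and middle), and X-high over X-low cells (right). Time 1 is in blue and time 2 in orange. The dashed line marks a ratio of 1.5 and the dotted line a log2 ratio of 1; the chromosome 1 genes lie between 0.32 and 0.57, and Ndufa1 lies highest of the X-linked genes.

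X dosage was read from cells with no UMI of 4 Y-linked genes, as X-high (X-linked over autosomal UMIs at least 1.5 times that of Y-positive cells) or X-low (under 1.2 times). There were 1585 X-high and 2578 X-low pluripotent cells at time 1, and 2075 and 14640 at time 2. Cox7b had 1073 CPM in X-high and 579 CPM in X-low cells at time 1, and 1201 and 597 CPM at time 2. Ndufb11 had 314 and 181 CPM at time 1, and 276 and 162 CPM at time 2. Ndufa1 had 251 and 112 CPM at time 1, and 191 and 78.9 CPM at time 2, log2 ratios of 1.155 and 1.27. From time 1 to time 2, Ndufb11 and Ndufa1 were lower in both kinds of cell. Cox7b was higher in both, though lower over the class, and the part of the X-high share in this was not tested.

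Over the 3 X-linked genes the median log2 ratio was 0.89 in the earlier and 1.01 in the later library. For all X-linked genes it was 0.85 and 0.92, with 92.9% and 94.8% of them past 1.2-fold higher, as all 3 members were. The members were left out of the X-high call, but the other X-linked genes entered it, so their share follows from the choice of cells. X-high cells lay mostly in the Jam2-led cluster, with 1476 of 1585 cells at time 1 and 1901 of 2075 at time 2. Within single clusters the median was 0.88 in Dppa3-led cells at time 1 (103 X-high and 2446 X-low cells), 0.88 in Jam2-led cells at time 2 (1901 and 58) and 0.84 in Nanos3-led cells at time 2 (136 and 7403). Ndufa1 had log2 ratios of 1.05, 0.88 and 1.08 there, and in the Jam2-led cells Cox7b, at 1.00, was above it. The mitochondrial sum was lower in X-high cells, with 21993 beside 24619 CPM at time 1 and 17029 beside 23664 CPM at time 2. Its log2 ratios were -0.16 and -0.47, and -0.10, -0.28 and -0.31 within those 3 clusters.

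Genes of glycolysis, the other route to ATP, were lower at time 2 in the pluripotent class, while the sum of the nuclear respiratory genes was nearly level. Of 20 listed glycolysis genes, 14 were past 1.2-fold lower at time 2 and 0 higher, with a median log2 ratio of -0.67 beside -0.03 for all genes. As a sum the 20 genes stood at 13570 CPM at time 1 and 9864 CPM at time 2, a log2 ratio of -0.46. At a fold of 1.5, 13 of 20 were lower, where 7.58% of all genes were. Pgk1, an X-linked kinase of the pathway, had 1364 and 581 CPM, Slc2a1, a glucose transporter, 222 and 118 CPM, and Ldha, which makes lactate, 1361 and 896 CPM. Also past this fold were Slc2a3, Gpi1, Pfkl, Pfkp, Aldoa, Tpi1, Eno1, Ldhb, Hk1 and Slc16a3. Within the Dppa3-led cluster the differences were smaller, with log2 ratios of -0.34 for Pgk1, -0.13 for Slc2a1 and -0.20 for Ldha, and within the Jam2-led cluster they were -0.75, -0.51 and -0.56.

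The other lists of mitochondrial genes are to be read beside the 18.7% of all genes that were past 1.2-fold higher and the 23.9% that were lower. Of 17 citrate cycle genes, 3 were higher and 2 lower, and Idh2, the mitochondrial NADP-linked isocitrate dehydrogenase, had 99.7 and 62.4 CPM. Of 78 mitochondrial ribosomal protein genes, 15 were higher and 6 lower. Mrps9 (42.0 and 72.9 CPM) and Mrps31 (65.6 and 102 CPM), on chromosomes 1 and 8, were past 1.5-fold higher, and Mrps24 (468 and 299 CPM) and Mrps28 (93.8 and 61.3 CPM) lower. Of 33 assembly factors outside the rule, 5 were higher and 3 lower, with Cmc2 on chromosome 8 at 43.9 and 67.2 CPM and Timmdc1, a complex I assembly factor, at 15.7 and 10.0 CPM.

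Of 16 genes for mitochondrial RNA handling, 5 were higher and 1 lower, and Fastkd2, on chromosome 1, had 28.0 and 48.6 CPM. Of 15 electron carriers and subunits with other names, 1 was higher and 3 lower. Of 11 regulators of mitochondrial biogenesis, 1 was higher and 3 lower, and their sum stood at 474 and 490 CPM.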

How the data were processed

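For each library the deposited matrix holds unnormalised UMI counts, whole numbers from Cell Ranger 6.1.2 and bcl2fastq 2.20.0.422 on mm10 (GRCm38), per the submitters' processing notes. Lipid-tag libraries, made to mark cells by origin, tagged poorly per the labels' protocols and were not used here, and the matrices hold no map from cells to lines. Of 32285 genes, 32235 matched GENCODE M21, the source of coordinates.

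The 20000 largest barcodes were ranked by UMIs, and cells were kept from 0.1 times their 99th percentile upwards (18315 and 18646 UMIs), where 1000 or more genes were detected and the mitochondrial share did not exceed 10%. Scrublet's automatic threshold marked 0 and 1 cells, so the 10% of cells with the highest scores were removed instead (2526 and 2766), a choice made after seeing the data. Both libraries were clustered together without the genes of the set, with scanpy 1.11.5 and igraph 0.11.9 (Leiden, resolution 0.5, 15 neighbours in a space of 30 principal components of the 2000 most variable autosomal genes). The 16 clusters took their names from marker lists where at least 2 of their 10 leading genes were markers of that class and the markers were detected; the 4 clusters of the pluripotent class had no marker of another class among these. Clusters that met neither condition are called by their leading gene. The Ulk4-led, Rpgrip1-led and Card19-led clusters also had no marker of another class there and were left unnamed, with genes of differentiating cells such as Notch2 or Krt18 among their leading genes. The naming rule was set with the clusters in view.

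UMIs were summed per library and state, scaled to CPM and compared as log2 ratios with a pseudocount of 1 CPM, for genes of at least 10 CPM on either side. No test was made, since each time point is a single library with no map from cells to lines, and folds of 1.2 between libraries and 1.5 between states set the counts. The calculation of log2 ratios was checked on simulated counts with known folds. Ndufa4, Ndufa4l2 and Cox7a2l were counted with complex IV. Genes were named by fixed rule: the 6 highest and 6 lowest ratios, all mitochondrial genes, those on chromosomes 1, 8, 14 and X, isoform groups, the 3 highest and 3 lowest per state, and list genes past 1.5-fold; Sdhd, Ndufaf3, Sdhaf1, Uqcrfs1, Uqcrc1, Ndufaf4, Nrf1 and Tfam were named after their values were seen. A gene that the rule names is not reported here. The genes and lists were chosen with earlier results of these data known. Promoters came from RefSeq (GRCm38.p6), and the motif was chosen after seeing the data. Alternatives changed scaling (edgeR 4.0.16 in R 4.3.3), filters, doublets, thinning and the cells counted in the class. Python 3.11.15, numpy 2.4.6, scipy 1.17.1 and pandas 2.3.3 were used.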

Additional observations from a re-analysis of the deposited data

Results flagged for a closer look

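In primed epiblast-like cells the mitochondrial genes were above the pluripotent class at time 1 (log2 ratio 0.12) and below it at time 2 (-0.33), a difference of -0.45 between libraries. In H19-led cells the ratios were 0.11 and -0.27, a difference of -0.38. In Ramp2-led cells they were 0.35 and -0.11, a difference of -0.47, from 77 and 192 cells. These 3 states were picked out because their ratios have opposite signs in the 2 libraries and at least 1 is past 1.2-fold, and the difference was not tested. In 2-cell-like cells the signs were also opposite, at 0.15 and -0.15, from 158 and 58 cells, with neither past that fold. Some marker lists were higher at time 2 and others lower. Fibroblast markers summed to 33.8 CPM at time 1 and 139.6 CPM at time 2 in primed epiblast-like cells (8 of 8 detected at both). Trophoblast markers summed to 106 and 209 CPM in H19-led cells (8 of 8), and endoderm markers to 207 and 368 CPM in Ramp2-led cells (9 of 9). Primed epiblast markers fell in all 3 states, from 445 to 353 CPM, 89.7 to 64.3 CPM and 108 to 61.7 CPM, in the same order. Krt7 of the trophoblast list and Col4a1 of the endoderm list were leading genes of the H19-led and Ramp2-led clusters. These 2 lists thus need not mark other cells there. The part of any marker list in the differences was not tested. The pluripotent class to which these states are compared lay mostly in other clusters at time 2 than at time 1.

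Barcodes under 2000 UMIs enter no comparison above. Their mitochondrial genes of the set stood at 12497 CPM at time 1 and 164000 CPM at time 2, while their nuclear genes stood at 26426 and 19871 CPM. These are 87011 and 12277 barcodes, and they were picked out because they lie outside the cells analysed.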

How the results depend on the processing

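No paired analysis was possible because each time point has 1 library and the files used here hold no map from cells to lines. Counting error is so small at this depth that nearly any other setting moves a sum beyond it. The log2 ratio of the nuclear sum, -0.01, was -0.0122 with a mitochondrial limit of 20%, -0.0121 with none, -0.0120 with a minimum of 5000 UMIs, -0.0154 without mitochondrial genes in the total, -0.0171 thinned to 10000 UMIs, -0.00091 over all cells, -0.0382 with the Ulk4-led and Rpgrip1-led clusters added and -0.0495 in the Dppa3-led cluster alone. It was above 0 with TMM factors (0.13), with primed epiblast-like cells (0.0637) or the H19-led cluster (0.0138) added and in the Jam2-led cluster alone (0.0403). The mitochondrial sum, -0.06, was 0.0816 with TMM factors. Otherwise it was -0.0590 without mitochondrial genes in the total, -0.0608 with the Ulk4-led and Rpgrip1-led clusters, -0.0755 with doublets, -0.0846 at 5000 UMIs, -0.10 under both mitochondrial limits and thinned, -0.11 with H19-led and -0.13 with primed cells, -0.13 in the Dppa3-led and -0.40 in the Jam2-led cluster alone, and -0.14 over all cells. Nuclear genes past 1.2-fold, 8 higher and 15 lower, were 23 and 8 with TMM factors, for which the shares of all genes are not given. They were 3 and 7 in the Dppa3-led cluster alone, beside 14.2% and 11.3% of all genes. In the Jam2-led cluster alone they were 5 and 8, beside 12.7% and 18.3%. Chromosome 1 genes in gained cells, 0.46, had 0.49 scaled to other autosomes, 0.53 in the Nanos3-led and 0.49 in the Gm46332-led cluster. X-linked genes had 0.86 at time 1 and 0.94 at time 2 with 1 threshold, and at time 2 also 1.04 without gains, 0.88 in the Jam2-led and 0.84 in the Nanos3-led cluster. In the Jam2-led cluster alone mt-Nd3 turned to -0.14, and mt-Nd1 (-0.19), mt-Nd2 (-0.13), mt-Nd4 (-0.28), mt-Nd6 (-0.23) and mt-Atp6 (-0.31), all above 0 in the class, were below 0 too. In the Dppa3-led cluster alone mt-Nd4, mt-Nd6 and mt-Atp6 were below 0, as was mt-Nd6 over all cells and with primed cells added. The cause of these changes was not tested. Settings that changed the cells of the class by cluster, and within-cluster values, were chosen after seeing the data. For 63 distinct values of single genes and state sums, the settings gave 464 comparisons. Of these, 150 stayed within their counting interval, 313 moved and 1, past 1.2-fold in the class, changed sign. Smaller ratios included, 11 of the 464 had the opposite sign, all of mitochondrial genes. Each setting held 25 or 63 of these values, fewer than the 92 nuclear genes, so the sign was not followed for every nuclear gene. The nuclear sum and the nuclear counts above did turn with TMM factors. With 1 library per group, no depth can separate passage from library or from the shares of the lines.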

Other observations

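Some cells held very little mitochondrial RNA. Cells under 0.5% mitochondrial UMIs numbered 593 (2.55%) at time 1 and 692 (2.72%) at time 2, and their nuclear genes of the set took a median of 2.99% and 2.76% of UMIs, beside 2.91% in the other cells of each library. By median they had 50103 UMIs at time 1 and 39797 at time 2, beside 44219 and 50659 in the others. In the Jam2-led cluster 6.49% of cells were of this kind at time 1 and 12.8% at time 2. Such cells were not particular to it: they made up 7.14% of blood-like cells at time 1. At time 2 they made up 13.8% of 2-cell-like cells and 9.45% of both H19-led and primed epiblast-like cells.

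The Card19-led cluster of time 1 is the extreme. All of its 69 cells lay under 0.5% mitochondrial UMIs, with a median of 352626 UMIs a cell. The mitochondrial genes of the set stood at 1093 CPM and the nuclear ones at 41345 CPM, the highest nuclear sum of any state. Ndufa3, an accessory subunit of complex I, had 261 CPM there beside 110 CPM in pluripotent cells, and Ndufb2 303 beside 144 CPM. Whether these barcodes hold more than 1 cell was not tested.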
